A study of Mus musculus with 6 samples.

Results

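Serine, glycine and one-carbon metabolism was followed through 10 genes named by symbol: Phgdh, Psat1 and Psph for serine synthesis, Shmt1, Shmt2 and Mthfd2 for the exchange of one-carbon units, Gnmt and Cbs for the use of methyl groups and homocysteine, and Gatm and Gamt for creatine synthesis. All 10 were found by their Ensembl identifiers among the 55414 genes of the count tables. They stand for pathways known to be active in acinar cells, and the rule names them by symbol without a threshold on measured values.

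Serine is made from a glycolytic intermediate, 3-phosphoglycerate, by the successive action of Phgdh, Psat1 and Psph. Serine hydroxymethyltransferases split serine into glycine and a one-carbon unit carried by folate, which feeds nucleotide synthesis and the remethylation of homocysteine to methionine. The exocrine pancreas is known for a high content of glycine methyltransferase and of the enzymes that turn glycine and arginine into creatine, and its acinar cells take up large amounts of amino acids to make digestive enzymes.

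The 6 libraries were made from acinar cells of the adult mouse pancreas, which secrete its digestive enzymes. The 3 control preparations carried Pdx1Cre;Trip12+/+ and the 3 knockout preparations Pdx1Cre;Trip12fl/fl, so both groups carry the Cre recombinase and no preparation without Cre was analysed here. Trip12 encodes an E3 ubiquitin ligase. Pdx1 is active in pancreatic progenitors, so the recombinase reaches duct and islet lineages as well as acinar cells. The labels give no treatment, no sex, no age in weeks and no method of cell isolation. They number the preparations as biological replicates without saying what a number stands for, and the p-values measure the spread between these preparations only. Where a fit with the replicate block is cited, it takes same-numbered libraries as pairs, a choice made from these same counts.

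The libraries held 31019500 to 34041901 gene counts. Trip12 had normalised counts (CPM, scaled with TMM library sizes) of 29.0, 22.3 and 26.4 in controls 1 to 3 and 14.4, 14.7 and 13.0 CPM in the knockoutss 1 to 3. It fell by 0.89 on the log2 scale, with a standard error of 0.14 and an edgeR adjusted p of 0.0256. Its groups did not overlap and its direction held when any library was left out (-0.98 to -0.82). The call was lost without any 1 library other than control 1 (edgeR adjusted p 0.0676 without control 2, 0.0883 without control 3, 0.126 without knockout 1, 0.0803 without knockout 2 and 0.140 without knockout 3), with sex as a covariate (0.0941), in the block without pair 2 (0.0528) and on library totals, where the log2 fold change was -0.49 (0.125). All 14 acinar markers were detected, with summed levels of 474603 to 640651 CPM in the controls and 399727 to 412601 CPM in the knockouts. Of these markers 13 of 14 had a negative log2 fold change and 8 of 14 had groups without overlap, against 22.9% of all tested genes, and none was called in the fit without the replicate block. With the block, which called 5.99% of all tested genes, Cela2a, Gp2 and Ptf1a were called lower (edgeR adjusted p 0.0109, 0.00919 and 0.0460). Rbpjl, the acinar subunit of the PTF1 transcription complex, went the other way, at 183, 279.6 and 179.6 CPM in the controls and 486, 658 and 369.8 CPM in the knockouts (edgeR adjusted p 0.0685, and 0.00203 with the block). Markers of other cells were low beside them. The sums of the 12 leukocyte markers were 25.5 to 199 CPM in the controls and 27.0 to 131 CPM in the knockouts. The 8 islet markers summed to 352 to 459 CPM and 242 to 908 CPM, the 8 duct markers to 202 to 243 CPM and 189 to 283 CPM, and the 12 stromal and endothelial markers to 31.7 to 148 CPM and 42.8 to 166 CPM. The duct sum joins opposite moves. Spp1 averaged 62.3 CPM in control and 131 CPM in knockout, and Muc1 100 CPM and 59.5 CPM. Of the 8 duct markers, 5 had positive and 3 negative log2 fold changes, and 5 had groups without overlap, against 22.9%. None was called without the block, and 3 were called higher and 2 lower with it. With the block, 4 of 10 tested leukocyte markers were called higher and 1 lower. The 5 adipocyte markers, of which Adipoq and Lep had no count in any library, summed to at most 17.2 CPM, and the 5 Schwann cell and glial markers to at most 4.45 CPM. Xist, the RNA of the inactive X chromosome, had 2118 and 2440 counts in controls 2 and 3 and 3 to 5 counts in the other 4 libraries. Control 1 was therefore the one control that matched the knockouts in this respect.

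The creatine genes, Phgdh and Gnmt were abundant transcripts and the Psph and Shmt1 transcripts were scarce. Levels between genes were compared per length, as TPM (counts divided by exonic length and scaled to the same sum in each library). By mean TPM over the 6 libraries, Gatm ranked 90 among all genes, Gamt 119, Phgdh 127, Gnmt 184 and Cbs 323. Mthfd2 ranked 638, Psat1 818 and Shmt2 853, whereas Psph ranked 5935 and Shmt1 7547. In control, Gatm averaged 178 TPM ± 15.2 (SD, n = 3) and Shmt1 1.03 TPM ± 0.222. Between them lay Phgdh at 107 TPM ± 13.3, Gamt at 102 TPM ± 8.64, Gnmt at 77.8 TPM ± 11.1 and Cbs at 34.0 TPM ± 4.18. Mthfd2, Shmt2 and Psat1 followed at 16.1 TPM ± 4.01, 13.6 TPM ± 3.51 and 12.3 TPM ± 4.88, and Psph at 1.50 TPM ± 0.321. Several neighbours in this order lay within each other's spread. Phgdh was above Gamt in controls 1 and 2 and below it in control 3 and in all 3 knockouts. Mthfd2, Shmt2 and Psat1 overlapped in control, and Psph and Shmt1 lay below all 3 in every library.

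**Figure D1:**
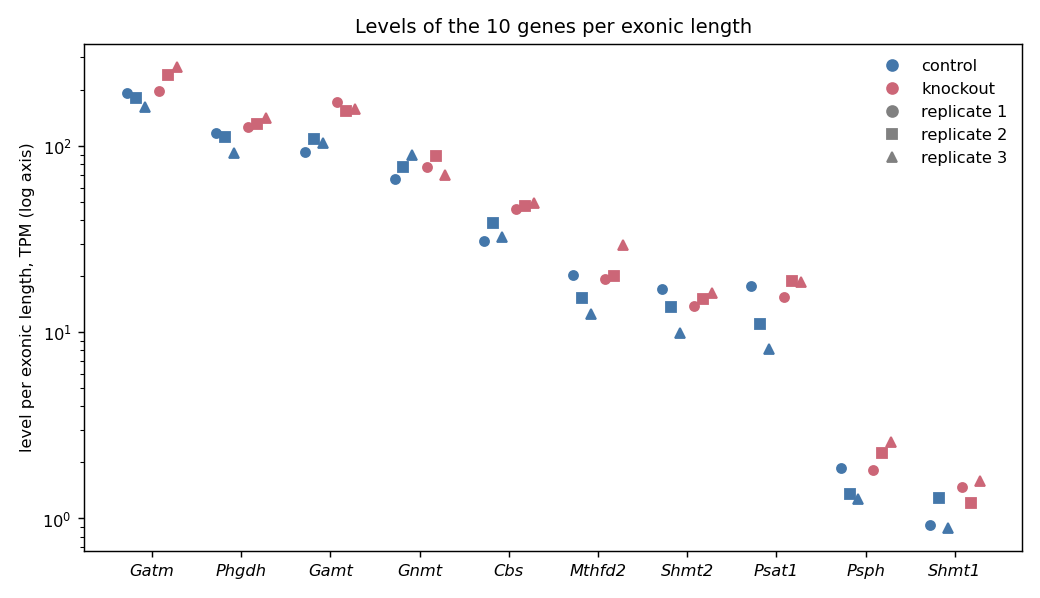
Levels of the 10 genes in TPM on a log axis, 1 point per library, with control libraries in blue, knockout libraries in red and the replicate number as the symbol. Gatm lies highest in every library, at 162 TPM or more, and Psph and Shmt1 lie lowest, at 0.89 to 2.59 TPM.

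The 10 genes together made up 558, 561 and 513 TPM in controls 1 to 3 and 674, 721 and 753 TPM in knockouts 1 to 3, and Gatm alone held 29.5% to 35.4% of each sum. TPM is a share of each library. On library totals the typical gene lay higher in the knockouts, and a difference between groups on the TPM scale carries that shift. Changes between groups are therefore given below on the TMM scale, and the values on library totals follow them.

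None of the 10 genes passed the edgeR quasi-likelihood test between control and knockout, with p-values adjusted by Benjamini and Hochberg over 13115 tested genes. All 10 passed the filter on low counts. In that fit 124 genes were called at an adjusted p under 0.05, which is 0.945% of those tested (61 or 0.465% higher in knockout and 63 or 0.48% lower), so 0 of 10 is close to what this background gives. None had an unadjusted p under 0.05 either, a limit that 2193 genes (16.7%) passed. DESeq2 and limma-voom also called 0 of the 10, beside 593 and 84 genes over all. A fit that blocked on the replicate number called 785 genes (5.99%), 446 of them higher (3.4%) and 339 lower (2.58%), and again 0 of the 10. Its pairing was chosen from these same data, so its p-values rest on that choice. In none of the 10 did the 3 control and 3 knockout libraries separate without overlap, as they did in 3004 genes (22.9%). Of the 10 log2 fold changes, 6 were positive and 4 negative. Their median was 0.03, beside 0.02 over all tested genes.

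**Figure D2:**
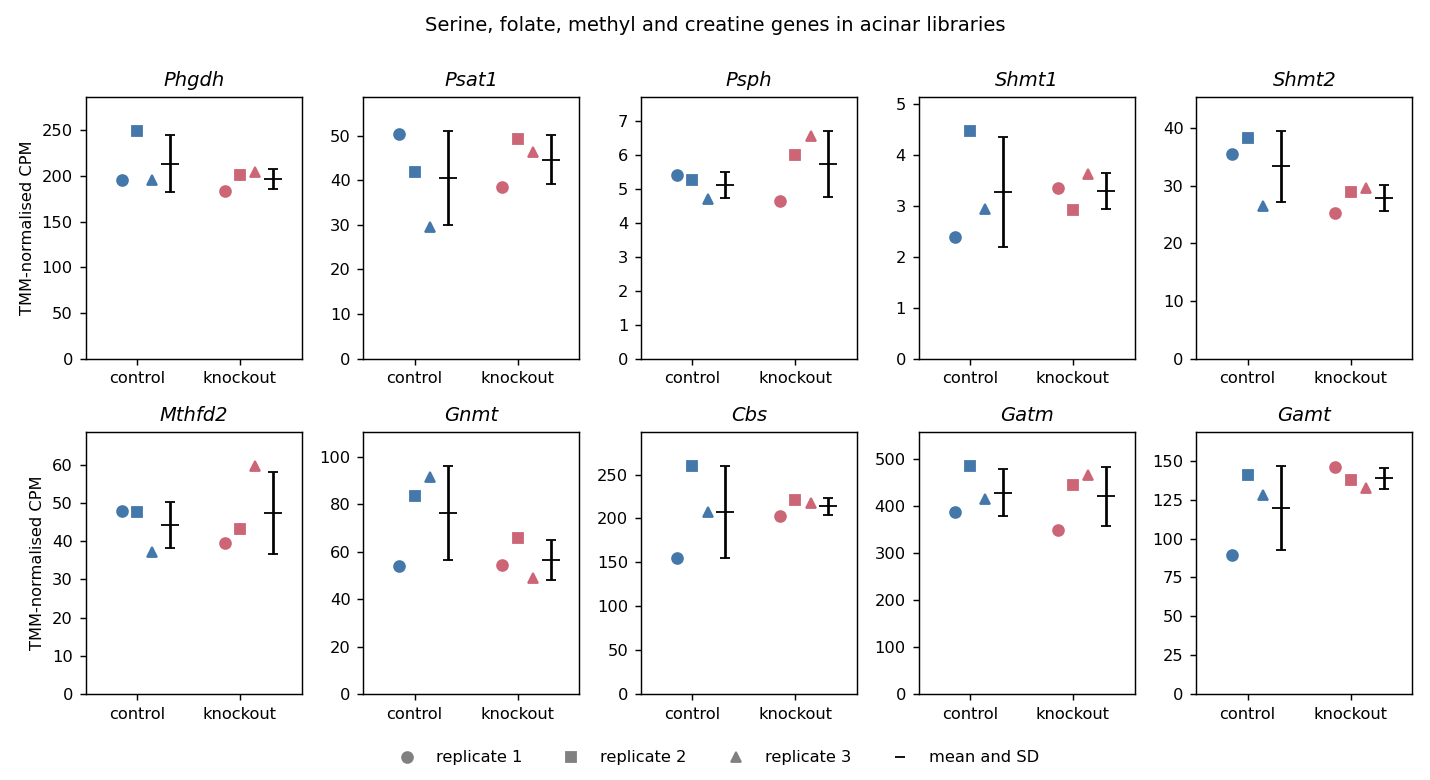
Normalised CPM of the 10 genes, 1 panel per gene, with 1 point per library (the symbol gives the replicate number) and the mean and SD of each group beside the points. In every panel at least 1 knockout library falls inside the range of the controls or the reverse, and the highest Gnmt values belong to controls 2 and 3.

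No serine synthesis gene differed beyond the spread of the libraries. Phgdh (ENSMUSG00000053398), which oxidises 3-phosphoglycerate in the committed step, had 196, 249.7 and 195 CPM in controls 1 to 3 and 184, 202 and 205 CPM in the knockoutss 1 to 3. The knockouts lay around the lower controls, and control 2 was the highest library. The knockout level was 0.921 times the control level, with a 95% interval of 0.715 to 1.19 and an edgeR adjusted p of 0.784. Psat1 (ENSMUSG00000024640), the aminotransferase of the next step, had 50.4, 42.0 and 29.5 CPM in the controls and 38.5, 49.2 and 46.3 CPM in the knockouts. Control 1 and control 3 were its highest and lowest libraries, so the controls spanned all of the knockouts. The ratio of knockout to control was 1.10, with an interval of 0.798 to 1.52 and an edgeR adjusted p of 0.810. Psph (ENSMUSG00000029446), the phosphatase that releases serine, had 5.42, 5.26 and 4.69 CPM in the controls and 4.64, 5.99 and 6.54 CPM in the knockouts. Knockouts 2 and 3 were above every control and knockout 1 was below every control. Its ratio was 1.12, with an interval of 0.846 to 1.48 and an edgeR adjusted p of 0.719. Within a library, per length, Phgdh exceeded Psat1 by 6.66, 10.2 and 11.3 times in control and by 8.19, 7.01 and 7.56 times in knockout, groups that overlapped.

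Phgdh has close copies in the genome that bear on its count. The GRCm38 annotation holds 17 processed pseudogenes whose sequence is 90.4% to 98.8% identical to its transcript. Reads that map to several places were counted to no gene, and their share was 27.2% ± 1.20 (SD, n = 3) in the control libraries and 22.7% ± 1.27 in the knockout libraries, so the level of Phgdh is uncertain by the reads it shares with these copies. The copies together held 323, 305 and 60 counts in controls 1 to 3 and 44, 65 and 43 counts in knockouts 1 to 3. That was 4.93%, 4.78% and 1.10% of the counts of Phgdh and its copies in control and 0.637%, 0.912% and 0.560% in knockout. Most of these counts lay in 2 pseudogenes. Gm9347 had 171, 142 and 22 counts in control and 9, 17 and 8 in knockout, a log2 fold change of -3.66 with an edgeR adjusted p of 0.0948, and of 0.00150 with the replicate block. Gm7901 had 116, 127 and 27 counts in control and 20, 35 and 22 in knockout, with an edgeR adjusted p of 0.133, and of 0.0132 with the block. Control 3 resembled the knockouts in both. These pseudogenes were singled out after their values were seen. Psat1 has 1 such copy, which had no count in any library, and the other 8 genes have none.

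Among the enzymes that exchange one-carbon units, none passed the test. Shmt2 (ENSMUSG00000025403), the mitochondrial serine hydroxymethyltransferase, had 35.4, 38.2 and 26.4 CPM in controls 1 to 3 and 25.3, 28.8 and 29.6 CPM in the knockoutss 1 to 3. Control 3 lay among the knockouts, below controls 1 and 2. The ratio of knockout to control was 0.837, with an interval of 0.647 to 1.08 and an edgeR adjusted p of 0.486. Shmt1 (ENSMUSG00000020534), its cytosolic counterpart, had 2.39, 4.48 and 2.94 CPM in the controls and 3.35, 2.91 and 3.62 CPM in the knockouts. These values rest on 76 to 135 counts per library, and the controls spanned the knockouts. The ratio was 1.01, with an interval of 0.667 to 1.53 and an edgeR adjusted p of 0.985. Mthfd2 (ENSMUSG00000005667), the mitochondrial enzyme that oxidises the one-carbon unit on folate, had 47.8, 47.6 and 37.2 CPM in the controls and 39.6, 43.1 and 59.7 CPM in the knockouts. Knockout 3 was above every control, and the other knockouts were inside the range of the controls. Its ratio was 1.07, with an interval of 0.798 to 1.44 and an edgeR adjusted p of 0.853. The mitochondrial form predominated in every library. Per length, Shmt2 exceeded Shmt1 by 18.5, 10.7 and 11.2 times in control and by 9.44, 12.4 and 10.2 times in knockout. Part of the exon sequence of Psph, Shmt1 and Shmt2 (10.4%, 4.74% and 1.03% of bases) overlaps a gene on the opposite strand, and the counts do not keep strand.

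The widest difference among the 10 genes was that of Gnmt, and it did not pass the test. Gnmt (ENSMUSG00000002769), which methylates glycine to sarcosine and thereby consumes S-adenosylmethionine, had 54.2, 83.4 and 91.6 CPM in controls 1 to 3 and 54.4, 65.7 and 49.1 CPM in the knockoutss 1 to 3. Controls 2 and 3 were above every knockout, and control 1 lay inside the range of the knockouts. Gnmt had a log2 fold change of -0.44 (standard error 0.21), an unadjusted p of 0.0717 and an edgeR adjusted p of 0.349. The ratio of knockout to control was 0.738, with an interval of 0.527 to 1.03. Controls 2 and 3 were also the libraries with Xist counts. With sex as a covariate, which leaves control 1 as the only control of the same sex as the knockouts, the Gnmt log2 fold change was 0.06. Genotype and sex cannot be told apart in Gnmt beyond that 1 library. Without control 1 the log2 fold change was -0.66 and the edgeR adjusted p 0.0578.

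Cbs (ENSMUSG00000024039), which condenses serine with homocysteine and opens the route to cysteine, had 155, 259 and 208 CPM in the controls and 203, 221 and 217 CPM in the knockouts. The knockouts lay close together, inside the range of the controls. The ratio was 1.03, with an interval of 0.753 to 1.41 and an edgeR adjusted p of 0.940. Per length and within a library, Gnmt exceeded Cbs by 2.18, 2.00 and 2.74 times in control and by 1.67, 1.84 and 1.40 times in knockout. These groups did not overlap, and the exact two-sided permutation p was 0.1, the smallest that 3 against 3 libraries can give. The pair was picked after its values were seen.

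Creatine synthesis begins with Gatm (ENSMUSG00000027199), which joins arginine and glycine into guanidinoacetate. Gatm had 387, 485 and 415 CPM in controls 1 to 3 and 349.6, 446 and 467 CPM in the knockoutss 1 to 3. Knockout 1 was the lowest library and control 2 the highest, and the other 4 lay between them. The ratio of knockout to control was 0.981, with an interval of 0.739 to 1.30 and an edgeR adjusted p of 0.959. Gamt (ENSMUSG00000020150), which methylates guanidinoacetate to creatine, had 89.6, 141 and 128 CPM in the controls and 146, 138 and 133 CPM in the knockouts. Control 1 was well below the other 5 libraries, and control 2 lay among the knockouts. The ratio was 1.16, with an interval of 0.863 to 1.56 and an edgeR adjusted p of 0.636. Per length, Gamt stood at 0.481, 0.605 and 0.643 of Gatm in control and at 0.868, 0.641 and 0.592 in knockout, again with overlap.

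On the CPM scale the controls varied more than the knockouts in 7 of the 10 genes. The coefficient of variation of Cbs was 25.3% in control and 4.67% in knockout, and that of Gamt 22.4% and 4.83%. Psph, Mthfd2 and Gatm varied more in the knockouts, at 17.1%, 22.6% and 14.8% beside 7.48%, 13.7% and 11.8%. In CPM, control 1 was the lowest control for Shmt1, Gnmt, Cbs, Gatm and Gamt. In TPM it was the highest control for Gatm (192, 181 and 162 TPM in controls 1 to 3). Its Shmt1 level was then above that of control 3 (0.919 and 0.890 TPM). Control 1 also had the highest leukocyte marker sum, 199 CPM beside 44.0 and 25.5 CPM in controls 2 and 3. It was also the one control with few Xist counts. The part of leukocytes or of sex in its values was not tested. In these bulk samples, fewer cells of a type and less RNA per cell cannot be told apart.

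The direction of several of these small differences depended on the scaling. On plain library totals the median log2 fold change of all tested genes was 0.43, a shift of 0.41 from the TMM scale, and 1519 genes were called, 1442 of them higher in knockout, beside 61 higher and 63 lower on the TMM scale. On library totals the log2 fold changes were 0.30 for Phgdh, 0.15 for Shmt2, 0.0045 for Gnmt and 0.39 for Gatm, which were negative on the TMM scale. Cbs at 0.49 and Gamt at 0.66 were called on library totals, with edgeR adjusted p-values of 0.0481 and 0.0256. Relative to the median of all genes on that scale, the values were 0.06 for Cbs, 0.23 for Gamt, -0.43 for Gnmt and -0.28 for Shmt2, close to those on the TMM scale. Gamt rose relative to library totals and did not pass the test relative to the typical gene.

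**Figure D3:**
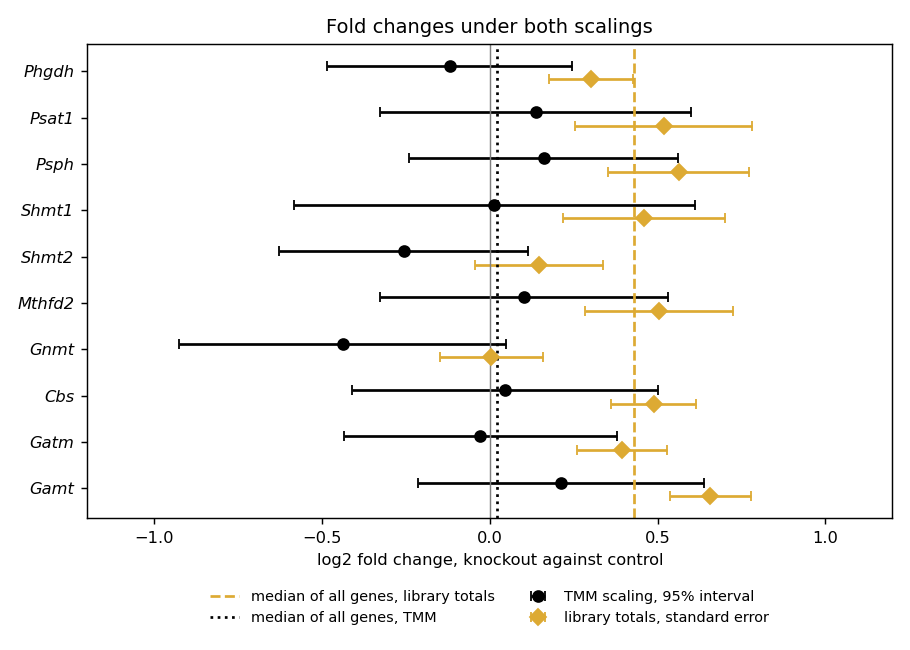
Log2 fold change of knockout against control for the 10 genes under TMM scaling with 95% intervals, with the values on library totals and their standard errors beside them and the median of all genes marked as a line for each scaling. Every TMM interval spans 0, and the values on library totals lie about 0.41 higher for all 10.

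Over the 6 libraries the genes did not move as 1 block. Among the 45 pairs, Pearson's r of log2 CPM was highest for Shmt1 and Cbs (0.874), Cbs and Gamt (0.857), Psph and Mthfd2 (0.837) and Phgdh and Gatm (0.797), and lowest for Psat1 and Gnmt (-0.648). These values describe 6 libraries that share scaling factors and group structure. By the same measure over 12109 protein-coding genes, the patterns most like that of Gatm were those of Med19 (0.977), Gramd3 (0.975) and Zfp934 (0.975). Those most like Gamt were Mier3 (0.986), Armc6 (0.985) and Akr1a1 (0.984), and those most like Phgdh were Zpr1 (0.981), Gch1 (0.981) and Hsd17b4 (0.975).

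Around these genes, 4 of 91 tested genes in 7 pathway lists were called, against the 0.945% called over all genes. Sardh, Ggh and Ahcyl2 fell and Atf5 rose. With the replicate block, 11 of the 91 were called, 2 higher and 9 lower, against 5.99% over all genes. Without pair 2 the block called 3 of the 91, Atf5, Chdh and Sardh. The block calls of Ggh, Ahcyl2, Ahcy, Fpgs, Ckb, Ckmt1, Gcsh and Serinc2 therefore did not hold without that pair. Chdh and Ahcy were not called without pair 1 or without pair 3. Ggh, Ahcyl2, Ckb and Gcsh were called in both of those fits, and Atf5 and Sardh whichever pair was left out. DESeq2, without a block, called 13 of the 91, which include all 11 genes called with the full block. It called 593 of all 13115 genes, beside 124 in the main fit. Another 10 genes of the lists had too few counts to be tested. The median log2 fold change was -0.07, with 41 values above 0 and 50 below, and 29 of the 91 had groups without overlap, against 22.9% over all genes.

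In the methionine cycle and methyl transfer list, 2 of 16 tested genes fell, none rose, and the median log2 fold change was -0.15. Sardh, the mitochondrial dehydrogenase that returns the sarcosine made by Gnmt to glycine, had 38.7, 46.2 and 36.1 CPM in controls 1 to 3 and 15.4, 17.5 and 13.2 CPM in the knockoutss 1 to 3. Every knockout was below every control. It averaged 40.3 CPM ± 5.23 (SD, n = 3) and 15.3 CPM ± 2.15 and fell by 1.39 on the log2 scale (standard error 0.16, edgeR adjusted p 0.00810). Ahcyl2, a homologue of S-adenosylhomocysteine hydrolase, had 20.5, 22.3 and 20.03 CPM in the controls and 11.6, 13.9 and 12.6 CPM in the knockouts. Its groups did not overlap, with a log2 fold change of -0.72, a standard error of 0.13 and an edgeR adjusted p of 0.0413. Ahcy, the hydrolase itself, averaged 192 CPM ± 50.5 and 118 CPM ± 20.1, with groups that overlapped, and was called lower with the block (edgeR adjusted p 0.0426) but not without it (0.169). It has a copy with 99.7% identity, so its count is uncertain. Chdh, which oxidises choline on the way to betaine, averaged 18.7 CPM ± 3.99 and 10.6 CPM ± 1.79 and was likewise called lower with the block (edgeR adjusted p 0.0430) but not without it (0.0904).

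Within a library the ratio of Gnmt to Sardh counts was 1.40, 1.81 and 2.54 in controls 1 to 3 and 3.54, 3.76 and 3.73 in knockouts 1 to 3. This ratio does not depend on the scaling of the library. It averaged 1.92 ± 0.577 (SD, n = 3) in control and 3.68 ± 0.116 in knockout without overlap, with an exact two-sided permutation p of 0.1, the smallest possible here. The ratio was formed after the values were seen.

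In the folate list, 1 of 18 tested genes fell and none rose, with a median of -0.01. Ggh, the hydrolase that trims the polyglutamate tail of folates, had 224, 312 and 286 CPM in controls 1 to 3 and 100.4, 131 and 97.8 CPM in the knockoutss 1 to 3. All knockouts were below all controls, the knockout level was 0.401 times the control level, and the log2 fold change was -1.32 (standard error 0.19), at an edgeR adjusted p of 0.0202. Fpgs, the synthetase that adds that tail, had 16.0, 23.1 and 16.9 CPM in the controls and 30.7, 35.1 and 23.9 CPM in the knockouts. Its groups did not overlap, and it was called higher with the block (edgeR adjusted p 0.0161) but not without it (0.137), at a log2 fold change of 0.68. The ratio of Ggh to Fpgs counts within a library was 14.0, 13.5 and 16.9 in control and 3.27, 3.75 and 4.09 in knockout, also formed after the values were seen, with an exact two-sided permutation p of 0.1.

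**Figure D4:**
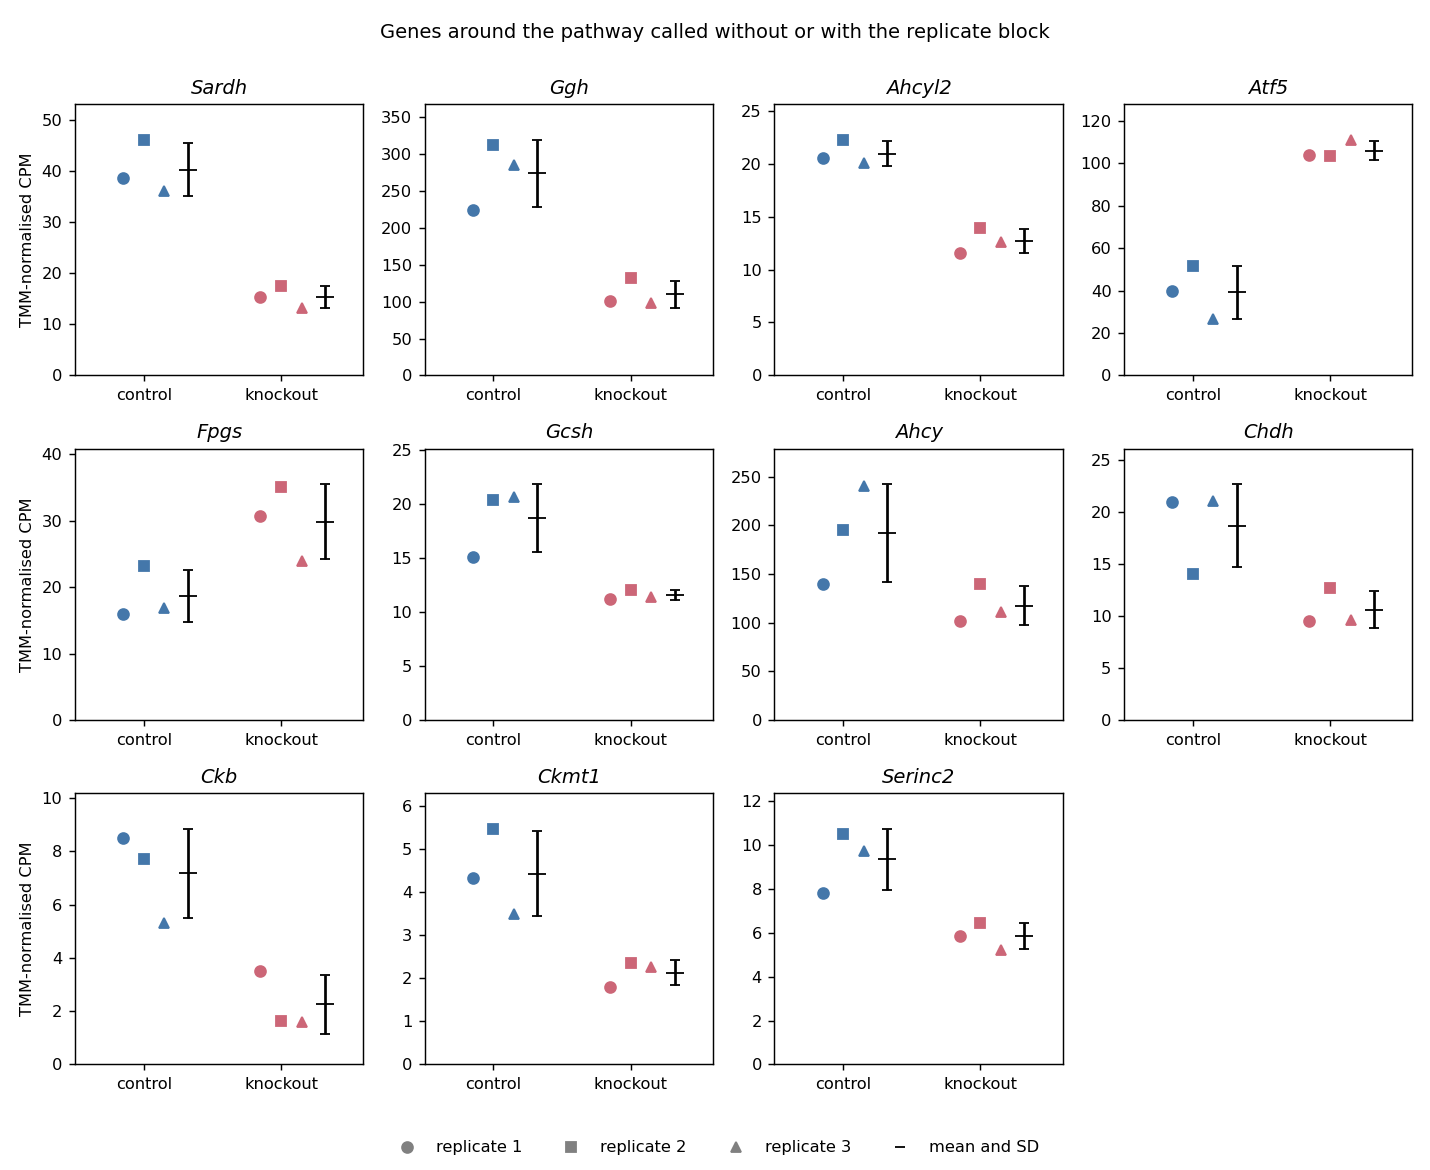
Normalised CPM of genes named from the pathway lists around serine and one-carbon metabolism, 1 panel per gene and 1 point per library, with the mean and SD of each group beside the points. Sardh, Ggh and Ahcyl2 lie lower and Atf5 lies higher in all 3 knockouts than in any control.

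The amino acid response list holds ATF4, the transcription factor that drives Phgdh, Psat1, Psph, Shmt2 and Mthfd2 when amino acids run short, and other targets of it. Of its 22 tested genes, 1 rose and none fell, and the median log2 fold change was 0.17. Atf5, a related transcription factor, had 39.8, 51.4 and 26.5 CPM in controls 1 to 3 and 104, 103 and 111 CPM in the knockoutss 1 to 3. Every knockout was above every control, and the log2 fold change was 1.43 (standard error 0.23, edgeR adjusted p 0.0265). Atf4 itself averaged 97.2 CPM ± 15.2 and 86.6 CPM ± 10.5, with an edgeR adjusted p of 0.690. The most abundant members of this list were Nupr1, a stress-induced chromatin protein, at 1379 CPM ± 379.7 and 1684 CPM ± 223, and Asns, the asparagine synthetase, at 239 CPM ± 26.5 and 205 CPM ± 24.2. Neither passed the test (edgeR adjusted p 0.582 for Nupr1 and 0.544 for Asns). None of the 5 ATF4-responsive genes among the 10 passed the test either, as given above.

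The promoter windows of the 10 genes were searched for a pair of short motifs, with windows from RefSeq on GRCm38.p6 running from 250 bases before to 50 bases after the start. TGATGNAA, the core of the element bound by ATF4 with C/EBP factors, was found on either strand in 0 of the 10 genes and in 3.97% of 32851 promoters. The windows of Asns and Nupr1 hold it. TGGGAA, the core bound by RBPJ and by RBPJL of the acinar PTF1 complex, was found in Shmt1 and Shmt2 and in 25.6% of all promoters. Among genes named from the lists, Sardh, Serinc2, Chdh, Gapdh, Asns and Nupr1 also hold it. The 4 stretches below show the TGGGAA matches of Shmt1 and Shmt2 and the TGATGNAA matches of Asns and Nupr1. They run 5′ to 3′ on the gene's strand with those matches in capitals. The Nupr1 stretch also contains TGGGAA, left in lower case. TTCCCA and TTGCATCA are matches on the other strand. Shmt2 holds the motif on both strands, Shmt1 on the other strand alone, and the stretches of Asns and Nupr1 show the ATF4 motif that the serine genes lack in this window.
Shmt2, chr10:127522492-127522557, minus strand: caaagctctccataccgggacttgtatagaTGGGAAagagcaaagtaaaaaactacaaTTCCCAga
Shmt1, chr11:60811404-60811469, minus strand: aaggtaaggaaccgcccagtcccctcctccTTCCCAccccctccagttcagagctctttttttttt
Asns, chr6:7693210-7693262, minus strand: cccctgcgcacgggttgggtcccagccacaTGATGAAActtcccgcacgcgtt
Nupr1, chr7:126625543-126625610, minus strand: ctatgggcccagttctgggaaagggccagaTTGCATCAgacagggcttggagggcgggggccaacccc
A match describes letters in a window and not a bound site. Neither Shmt1 nor Shmt2 passed the test between the groups.

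None of the 5 tested creatine transport and kinase genes was called in the fit without the block, and the median log2 fold change was -0.33. Ckb, the cytosolic brain-type creatine kinase, had 8.50, 7.72 and 5.31 CPM in controls 1 to 3 and 3.51, 1.63 and 1.61 CPM in the knockoutss 1 to 3. Its groups did not overlap, and it was called lower with the block (edgeR adjusted p 0.00146) but not without it (0.0712). It has a copy with 96.8% identity. Ckmt1, the mitochondrial creatine kinase, averaged 4.42 CPM ± 0.991 and 2.13 CPM ± 0.293, without overlap, and was called lower with the block (edgeR adjusted p 0.0225) but not without it (0.0791). Gatm and Gamt, which make the substrate of these kinases, were not called in either fit.

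Glycine breakdown was measured in 5 genes of a list of 6, none of them called without the block. Gldc, the decarboxylase of the glycine cleavage system, had no count in any library. Gcsh, which carries the aminomethyl group in that system, had 15.1, 20.3 and 20.6 CPM in the controls and 11.2, 12.0 and 11.4 CPM in the knockouts. It did not overlap between groups and was called lower with the block (edgeR adjusted p 0.0176) but not without it (0.0719). Amt, the aminomethyltransferase of the same system, had 3.91, 4.77 and 2.44 CPM in the controls and 7.85, 5.99 and 9.71 CPM in the knockouts. Every knockout was above every control, opposite in direction to Gcsh, with a log2 fold change of 1.09 (standard error 0.27) and an edgeR adjusted p of 0.108, and of 0.0606 with the block. DESeq2 called it. Amt was singled out after its values were seen. Dld, a subunit shared with other dehydrogenase complexes, averaged 36.4 CPM ± 4.30 and 33.1 CPM ± 5.63, and Gcat, which splits 2-amino-3-ketobutyrate into glycine and acetyl-CoA, 20.9 CPM ± 6.10 and 18.0 CPM ± 3.15. In the GRCm38 annotation, 47.5% of the exon bases of Gcat overlap another entry of the same name and strand. Gcsh has processed pseudogenes with 90.4% to 91.4% identity, so the counts of both genes are uncertain.

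In the list of serine exchange, 0 of 12 tested genes were called without the block. Serinc2, a membrane protein of the serine incorporator family, averaged 9.34 CPM ± 1.39 in control and 5.84 CPM ± 0.597 in knockout and was called lower with the block (edgeR adjusted p 0.0315) but not without it (0.0948). The most abundant members were Serinc3 at 299 CPM ± 106 and 214 CPM ± 16.2 and Slc38a2, a carrier of small neutral amino acids, at 81.5 CPM ± 7.94 and 69.99 CPM ± 12.6, and neither was called. Of 13 glycolytic genes upstream of the serine branch none was called in either fit. In 5 of the 13 the groups did not overlap, against 22.9% over all genes. Aldoa was 1 of these, with a log2 fold change of -0.43 and an edgeR adjusted p of 0.195, and DESeq2 called it lower. The most abundant by mean CPM over all 6 libraries, Aldoa and Gapdh, averaged 70.3 CPM ± 8.36 and 48.0 CPM ± 5.75 in control and 52.0 CPM ± 3.57 and 55.7 CPM ± 4.54 in knockout. Both have close copies in the genome, Gapdh many and some identical over the matched stretch, so their counts are uncertain.

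The 4 called pathway genes kept their direction when any library was left out, while their calls rested on few libraries. The log2 fold change ranged from -1.50 to -1.29 for Sardh, from -1.47 to -1.21 for Ggh, from -0.79 to -0.66 for Ahcyl2 and from 1.22 to 1.68 for Atf5. Sardh lost its call without control 2, knockout 1 or knockout 3 (edgeR adjusted p 0.0527, 0.0534 and 0.0582). Ggh lost it without control 2, control 3, knockout 1 or knockout 3 (edgeR adjusted p 0.122, 0.0743, 0.126 and 0.140). Atf5 lost it without control 2 or any knockout (edgeR adjusted p 0.0615 to 0.140), and Ahcyl2 without any library other than control 1 (0.0834 to 0.199). With sex as a covariate none of the 4 was called, with log2 fold changes of -1.33 for Sardh, -1.02 for Ggh, -0.69 for Ahcyl2 and 1.41 for Atf5. On library totals Ahcyl2 had a log2 fold change of -0.31 and was not called (edgeR adjusted p 0.156). The number of list genes called was 9 without control 1, 2 without control 3 or knockout 2, 1 without knockout 1, and 0 without control 2 or knockout 3.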

How the data were processed

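Poly-A enriched RNA from 6 preparations was sequenced, per the labels' protocols. The authors deposited raw counts per gene for each library, unstranded and for each strand, and the submitters' processing notes name STAR 2.7.10a and the builds GRCm39 and mm39. The annotation release is not given in the sources used here. The strands held near-equal shares (50.1% to 50.3% forward), so unstranded counts were used. Rows that name no gene held 36.9% to 45.7% of reads and stayed out of library sizes and tests. Symbols, lengths and copies came from the GENCODE M21 annotation of GRCm38, which matched 52081 of 55414 identifiers (94.0%). A symbol shared by several identifiers went to the one with the longest exon model. Copies were found with blastn 2.17.0.

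Tests used edgeR 4.0.16 in R 4.3.3 (filterByExpr, TMM, robust quasi-likelihood F test, Benjamini-Hochberg adjustment over 13115 genes, called under 0.05). On simulated data of 12835 genes the test recovered 62 of 100 changes of 2-fold and 98 of 100 of 4-fold, and beside these it made 21 false calls. The changed genes were drawn from genes above a floor in mean CPM, and Shmt1 and Ckmt1 lie below that floor. CPM and TPM were computed here from the deposited counts. Log2 CPM used a prior count of 2, and a standard error is the log2 fold change divided by the square root of F. Alternatives included DESeq2 1.42.0, limma 3.58.1, other scalings and filters, sex as a covariate, and each library left out. Precision is limited by 3 libraries per group. No libraries agreed within sampling noise (chi-square per degree of freedom at least 26.3). Same-numbered libraries deviated together from their group means, with correlations across genes of 0.63, 0.455 and 0.285 beside -0.496 to 0.21 for other pairs, and were taken as paired. The labels do not state this pairing, and it was chosen on the same counts that the block was then fitted to. Pairs 2 and 3 join a control with many Xist counts to a knockout with few. The blocked value is printed where it changes a call.

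The 10 genes and the lists were chosen with earlier results of these data known. All 10 and Trip12 are named. From each list, genes called with or without the block are named, and where fewer than 2 were, the 2 with the highest mean CPM. The 3 genes most like each of the 3 most abundant were taken by Pearson's r. Other genes were named after their values were seen.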

Additional observations from a re-analysis of the deposited data

How the results depend on the processing

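Across 21 alternatives, the 10 genes gave 210 fits, of which 177 kept direction and call, 2 gained a call and 31 reversed sign, and the genes named from the lists gave 399, of which 327 kept both, 40 gained a call, 24 lost it and 8 reversed. Trip12 kept both in 13 and lost its call in 8. No reversed value was called. The cause was not tested. The count of called genes, 124, was 1519 on library totals, 850 with no filter, 210 when each library had to hold at least 10 counts, 593 with DESeq2, 785 with the replicate block, 21 with sex as a covariate and 20 to 461 with 1 library left out. The 10 genes had 2 calls on library totals and 0 elsewhere. The 4 pathway calls became 20 on library totals, 12 with no filter, 13 with DESeq2, 11 with the replicate block, 0 with sex as a covariate and 0 to 9 with 1 library left out. In the block, leaving out pair 1, 2 or 3 gave 396, 100 and 832 called genes and 9, 3 and 10 pathway calls.

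Reversed log2 fold changes were as follows. On library totals they were 0.30 for Phgdh, 0.15 for Shmt2, 0.0045 for Gnmt, 0.39 for Gatm, 0.19 for Asns, 0.20 for Slc38a2, 0.28 for Dld and 0.22 for Gcat. Shmt1 was -0.00985 with RLE factors, -0.0077 with DESeq2 and -0.15 on reverse-strand counts. With sex as a covariate they were 0.0052 for Phgdh, -0.17 for Psat1, -0.010 for Mthfd2, 0.057 for Gnmt, 0.12 for Gatm, 0.096 for Serinc3 and 0.048 for Gcat. With 1 library left out, the ranges were -0.20 to 0.0064 for Phgdh, -0.047 to 0.30 for Psat1, -0.19 to 0.30 for Shmt1, -0.098 to 0.22 for Mthfd2, -0.15 to 0.24 for Cbs, -0.12 to 0.088 for Gatm and -0.36 to 0.048 for Gcat. In the block without pair 1 they were -0.18 for Shmt1, -0.10 for Cbs, 0.0043 for Gatm and -0.014 for Gamt, without pair 2 0.011 for Gatm and 0.035 for Gcat, and without pair 3 -0.081 for Psat1, -0.019 for Psph, -0.074 for Shmt1 and -0.21 for Mthfd2. The longest coding transcript in place of all exons moved 9 of 20 TPM means beyond their spread. Shmt1 rested on 76 to 135 counts per library and Psph on 128 to 244.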

Other observations

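Genes of the lists that had no count in any of the 6 libraries were Gldc, Agxt, Ftcd and Bhmt2, all known as liver enzymes. A count of 0 allows up to 3 counts, at most 0.123 CPM in any library.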
